A study of Homo sapiens with 13 samples.

Results

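The comparison asked at which human coding genes 2 histone marks, trimethylated lysine 4 of histone H3 (H3K4me3) and acetylated lysine 27 of histone H3 (H3K27ac), were found together, singly or not at all. Of 20056 RefSeq genes coding for protein, the 19821 placed on chromosomes 1 to 22 and X were used. A gene carried a mark when a reproducible region of it, that is, overlapping or touching peaks merged with at least 1 peak from each of the 2 replicate libraries, lay within 1000 bp of either end of the gene. By that rule 8463 genes (42.7%) carried both marks, 3038 (15.3%) H3K4me3 only, 218 (1.1%) H3K27ac only and 8102 (40.9%) neither.

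The cells were PANC1, an established line from a human pancreatic ductal adenocarcinoma, in a stable derivative that expresses added BRG1 (SMARCA4). The sample titles read BRG oe, taken here as overexpression. BRG1 is the ATPase of the SWI/SNF chromatin remodelling complex. CUT&RUN, in which an antibody directs micrococcal nuclease to its target and the released DNA is sequenced, gave 2 libraries each for H3K4me3, H3K27ac, H3K4me1, BRG1, NRF2 and SMARCC1. All 12 libraries came from the same line under the same condition, so the groups below are groups of genes and not of samples, and cells without the added BRG1 were not analysed here. The labels do not say whether the line is 1 clone or whether replicates were separate cultures, so the spread between replicates may be technical.

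H3K4me3 is laid down at gene starts by the SET1 and MLL (KMT2) methyltransferase complexes, mostly at unmethylated islands rich in CG dinucleotides, and is found at active genes and at genes held ready for activation. H3K27ac is laid down by the acetyltransferases p300 and CBP at active promoters and active enhancers. Enhancers typically carry H3K4me1 in place of H3K4me3.

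The 2 H3K4me3 peak lists held 18789 and 17752 peaks on these chromosomes, and the 2 H3K27ac lists 32499 and 32294. They merged into 15638 reproducible H3K4me3 regions, 75.2% of them at a gene end, and 24239 reproducible H3K27ac regions, 43.3% of them at a gene end. The values in peak lists are not read counts, so the sequencing depth behind each value is unknown. Of the 6 markers listed for the ductal line, KRT8, KRT18, KRT19, SOX9 and VIM carried both marks (83.3%, against 42.7% of all genes). KRT7 carried neither at its ends but held an H3K27ac region inside the gene. None of 5 acinar, 5 islet, 5 liver and 4 muscle markers carried either mark, where 40.9% of all genes carried neither. The blood marker CD14 and the neuron marker SYP carried H3K4me3 only.

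The 2 marks mostly stood together, and H3K27ac without H3K4me3 was the rarest state. Taking the replicate 1 libraries alone gave 8888, 2714, 245 and 7974 genes, and the replicate 2 libraries alone gave 9120, 2598, 262 and 7841. The order of the 4 groups was thus the same in each pair of libraries, and 2045 genes were H3K4me3 only and 199 H3K27ac only in both pairs. Of the 11501 genes with H3K4me3, 73.6% also had H3K27ac (exact Clopper-Pearson 95% interval 72.8 to 74.4%). Of the 8681 genes with H3K27ac, 97.5% also had H3K4me3 (97.1 to 97.8%). These intervals cover counting over genes only, and genes that share a region are not independent.

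The split between both marks and H3K4me3 only depended on how strong a peak had to be. When peaks with a −log10 q below 2 were left out, 4856 genes carried both marks, 6302 H3K4me3 only and 93 H3K27ac only. With a minimum of 5 the counts were 1151, 9404 and 26. The H3K4me3 only group is therefore a group without overlapping H3K27ac peaks listed in both libraries, and 32.7% of its genes had an H3K27ac peak in at least 1 of the 2 libraries.

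Promoter sequences set H3K27ac only genes apart from the other marked genes. The promoters below run from 250 bases before to 50 bases after a RefSeq start (GRCh38.p14) and are printed 5′ to 3′ with each CG dinucleotide in capitals. They were taken from the strongest genes of each marked group and the longest gene with neither mark that had a listed start within 1000 bp of the gene's outer end. WAPL (chr10:86521743-86522042, minus strand) codes for the factor that releases cohesin from chromatin, and KMT2B (chr19:35717753-35718052, plus strand) for an H3K4 methyltransferase. Both genes carried both marks, and their promoters held 44 and 48 CG dinucleotides.
WAPL: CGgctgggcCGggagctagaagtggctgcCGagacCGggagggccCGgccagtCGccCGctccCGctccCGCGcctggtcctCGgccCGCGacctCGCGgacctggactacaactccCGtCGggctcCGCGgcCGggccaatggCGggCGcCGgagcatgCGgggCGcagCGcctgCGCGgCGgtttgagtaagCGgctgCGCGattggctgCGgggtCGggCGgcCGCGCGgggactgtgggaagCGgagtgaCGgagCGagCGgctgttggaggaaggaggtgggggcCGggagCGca
KMT2B: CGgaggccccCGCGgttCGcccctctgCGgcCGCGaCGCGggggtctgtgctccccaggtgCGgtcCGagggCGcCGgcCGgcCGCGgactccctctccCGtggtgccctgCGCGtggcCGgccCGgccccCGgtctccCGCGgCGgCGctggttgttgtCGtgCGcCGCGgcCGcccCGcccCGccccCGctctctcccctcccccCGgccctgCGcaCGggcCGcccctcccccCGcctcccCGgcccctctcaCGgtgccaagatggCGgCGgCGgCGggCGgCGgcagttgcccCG
L3MBTL3 (chr6:130018331-130018630, plus strand), a reader of methylated lysines, and PELO (chr5:52787666-52787965, plus strand), a ribosome rescue factor, carried H3K4me3 only, with 23 and 19 CG dinucleotides.
L3MBTL3: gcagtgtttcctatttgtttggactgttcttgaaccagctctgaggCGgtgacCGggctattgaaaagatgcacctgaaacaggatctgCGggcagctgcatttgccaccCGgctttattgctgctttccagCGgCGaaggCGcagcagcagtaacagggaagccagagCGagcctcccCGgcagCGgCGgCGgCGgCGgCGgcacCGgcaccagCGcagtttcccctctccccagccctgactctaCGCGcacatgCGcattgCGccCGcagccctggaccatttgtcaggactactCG
PELO: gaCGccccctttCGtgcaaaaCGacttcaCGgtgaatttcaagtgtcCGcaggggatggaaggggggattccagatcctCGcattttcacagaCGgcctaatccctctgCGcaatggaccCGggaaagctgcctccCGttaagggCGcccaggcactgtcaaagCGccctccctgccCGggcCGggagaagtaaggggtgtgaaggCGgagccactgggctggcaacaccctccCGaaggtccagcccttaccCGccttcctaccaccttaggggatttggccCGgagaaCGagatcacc
NDST1 (chr5:150497529-150497828, plus strand), a heparan sulfate sulfotransferase, and the uncharacterised LOC124902361 (chr10:654383-654682, minus strand) carried H3K27ac only, with 8 and 5 CG dinucleotides.
NDST1: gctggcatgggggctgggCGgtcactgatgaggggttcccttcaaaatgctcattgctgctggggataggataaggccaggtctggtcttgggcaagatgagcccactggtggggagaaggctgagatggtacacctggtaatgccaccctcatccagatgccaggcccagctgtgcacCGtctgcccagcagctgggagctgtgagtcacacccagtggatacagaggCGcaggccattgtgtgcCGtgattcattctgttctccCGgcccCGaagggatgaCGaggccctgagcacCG
LOC124902361: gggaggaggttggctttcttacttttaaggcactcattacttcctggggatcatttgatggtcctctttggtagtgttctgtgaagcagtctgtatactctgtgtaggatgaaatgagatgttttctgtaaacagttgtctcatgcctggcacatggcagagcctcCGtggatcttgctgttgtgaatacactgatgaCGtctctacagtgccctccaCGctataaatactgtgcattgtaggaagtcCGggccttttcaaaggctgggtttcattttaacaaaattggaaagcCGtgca
CNTNAP2 (chr7:146116551-146116850, plus strand), a neuronal adhesion protein, carried neither mark and had 16 CG dinucleotides.
CNTNAP2: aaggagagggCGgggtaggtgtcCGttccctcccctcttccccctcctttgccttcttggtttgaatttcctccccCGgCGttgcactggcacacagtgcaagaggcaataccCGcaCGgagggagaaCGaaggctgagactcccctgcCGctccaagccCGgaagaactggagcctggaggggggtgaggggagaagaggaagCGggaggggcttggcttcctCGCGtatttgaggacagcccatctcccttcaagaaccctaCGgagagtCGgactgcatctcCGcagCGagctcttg

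Promoter sequences and strands were compared on the 15 chromosomes where the RefSeq promoter table covered at least 80% of the coding genes, for 11784 of 13578 genes, with 84.6 to 89.8% of each group covered. The median number of CG dinucleotides in the 300 bases was 27 in the 5094 promoters of genes with both marks, 25 in 1872 with H3K4me3 only, 7 in 132 with H3K27ac only and 8 in 4686 with neither. H3K27ac only genes thus resembled unmarked genes in CG content and differed from both groups with H3K4me3. At least 15 CG dinucleotides were present in 87.6% of promoters with both marks and 82.0% with H3K4me3 only, against 28% with H3K27ac only and 34.6% with neither. Read the other way, 60.7% of the 4991 promoters with 25 or more CG dinucleotides belonged to genes with both marks, and 88.4% of the 1881 with fewer than 5 belonged to genes with neither.

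Short motifs were counted on both strands of the same 300 bases, and a match is a description of the letters, not of binding. TGACTCA, the site of AP-1 (dimers of FOS and JUN proteins), was present in 18.2% of H3K27ac only promoters (24 of 132, interval 12.01 to 25.8%). It was present in 2.43% of promoters with both marks, 2.35% with H3K4me3 only, 5.23% with neither and 3.71% of all promoters. Within promoters of fewer than 15 CG dinucleotides the shares were 25.3% of 95 with H3K27ac only, 5.99% of 634 with both, 6.53% of 337 with H3K4me3 only and 7.02% of 3063 with neither. Among promoters with at least 15 CG dinucleotides the motif was present in 0 of 37 with H3K27ac only (interval 0 to 9.49%), 1.93% with both, 1.43% with H3K4me3 only and 1.85% with neither. The higher share of the H3K27ac only group was thus seen among promoters poor in CG, and the few CG-rich ones held no match. Where the promoter's own start lay within 1000 bp of an H3K27ac region and of no H3K4me3 region, 22 of 74 (29.7%) held the motif. Requiring peak summits rather than regions in the window changed the group to 748 genes and the share to 8.55%. CCGGAAG, the core of ETS factor sites, was present in 22.03% of promoters with both marks (interval 20.9 to 23.2%) and 13.7% with H3K4me3 only (12.1 to 15.3%), against 13.2% of all. TATAAA, the TATA box core, was present in 15.1% of promoters with neither mark and 4.85% with both. With fewer than 15 CG dinucleotides the shares were 19.5% with neither, 19.6% with H3K4me3 only, 14.7% with H3K27ac only and 12.1% with both. With at least 15, in the same order, they were 6.72%, 4.63%, 0% and 3.81%.

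NDST1 holds the AP-1 letters 47 bases before its start. S100A3 (chr1:153549209-153549508, minus strand) and S100A2 (chr1:153565795-153566094, minus strand), neighbouring genes for calcium-binding proteins, hold them 225 and 52 bases before theirs. These 3 genes had the strongest H3K27ac of the 24, and the S100 promoters are shown with the motif in capitals, spelled as the printed strand has it.
S100A3: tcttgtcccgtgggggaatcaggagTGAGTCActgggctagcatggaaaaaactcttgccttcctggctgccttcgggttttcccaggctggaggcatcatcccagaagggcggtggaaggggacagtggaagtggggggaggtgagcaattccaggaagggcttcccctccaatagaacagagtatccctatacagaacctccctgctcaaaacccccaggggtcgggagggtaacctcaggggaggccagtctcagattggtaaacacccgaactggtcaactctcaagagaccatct
S100A2: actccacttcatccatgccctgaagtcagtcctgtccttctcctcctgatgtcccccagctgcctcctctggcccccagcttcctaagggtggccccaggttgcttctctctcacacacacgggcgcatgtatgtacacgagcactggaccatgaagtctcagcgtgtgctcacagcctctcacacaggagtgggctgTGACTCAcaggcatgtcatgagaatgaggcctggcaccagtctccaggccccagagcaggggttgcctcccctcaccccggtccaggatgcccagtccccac
The other 21 were, from stronger to weaker H3K27ac, SLC26A1, CAPN2, AVPR2, HRH1, MBNL2, PSORS1C1, TM4SF19, INF2, IKBKG, DYNLT4, CSF1R, C15orf62, TREX1, ATG9B, UCN2, MUC17, TRIM54, CALHM3, SRPX2, ADGRF4 and NIBAN2. Of the 24, 22 had H3K27ac within 1000 bp of the promoter's own start, 13 had H3K4me1 at a gene end and 1, CALHM3, had BRG1. Over the whole H3K27ac only group, H3K27ac lay within 1000 bp of the 5′ gene end at 98 of 132 genes. H3K4me1 was present at 51.8% and BRG1 at 5.50% of its 218 genes, so the last 2 counts were near the shares of the group. The plot of CG content and AP-1 motif by group shows both features.

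**Figure D1:**
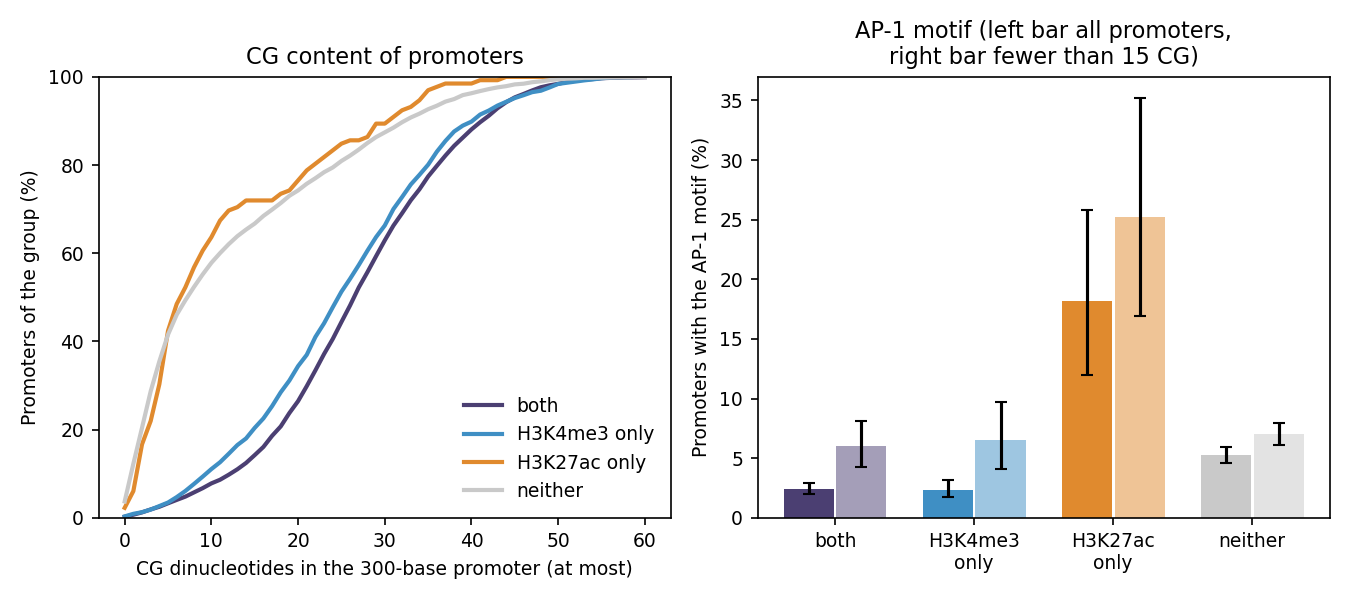
Left, cumulative share of promoters (%) against the number of CG dinucleotides in 300 bases, for 5094 promoters with both marks, 1872 with H3K4me3 only, 132 with H3K27ac only and 4686 with neither: the H3K27ac only curve follows the curve of unmarked genes. Right, share of promoters (%) with the AP-1 letters on either strand, with exact 95% intervals over promoters, for all promoters and for those with fewer than 15 CG dinucleotides: 18.2% and 25.3% with H3K27ac only, under 8% in every other bar.

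H3K4me3 was stronger and wider where H3K27ac was also present. The median fold enrichment of the strongest H3K4me3 region at a gene, the authors' peak value in column 7 of their lists, was 18.3 and 18.9 in the 2 libraries at genes with both marks and 8.2 and 8.71 at genes with H3K4me3 only. The ratio of the medians was 2.2 ± 0.049 (SD, n = 2). The 2 groups overlapped broadly: the lowest 5% of genes with both marks lay below 6.75 and 7.40, and the highest 5% with H3K4me3 only lay above 20.1 and 20.4. The median H3K4me3 width was 1940 and 1909 bp against 1062 and 1079 bp, a ratio of 1.8 ± 0.0407 (SD, n = 2). Both differences were larger than the difference between replicate libraries. Leaving out peaks with a −log10 q below 2 took the log2 ratio of fold enrichments from 1.14 to 0.74 and that of widths from 0.85 to 0.53.

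H3K27ac differed less between its groups. Its median fold enrichment was 4.39 and 4.46 at genes with both marks and 3.80 and 3.86 at genes with H3K27ac only, a ratio of 1.15 ± 0.00207 (SD, n = 2). Its median width was 658 and 677 bp against 437.5 and 463 bp, a ratio of 1.48 ± 0.0296 (SD, n = 2). With a minimum −log10 q of 5 the difference in fold enrichment turned to a log2 ratio of −0.030 over 26 H3K27ac only genes, and with summits required in the window that in width turned to −0.044. The order of the H3K27ac groups was thus not kept under every setting, while that of the H3K4me3 groups was kept under all 17 settings tried.

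**Figure D2:**
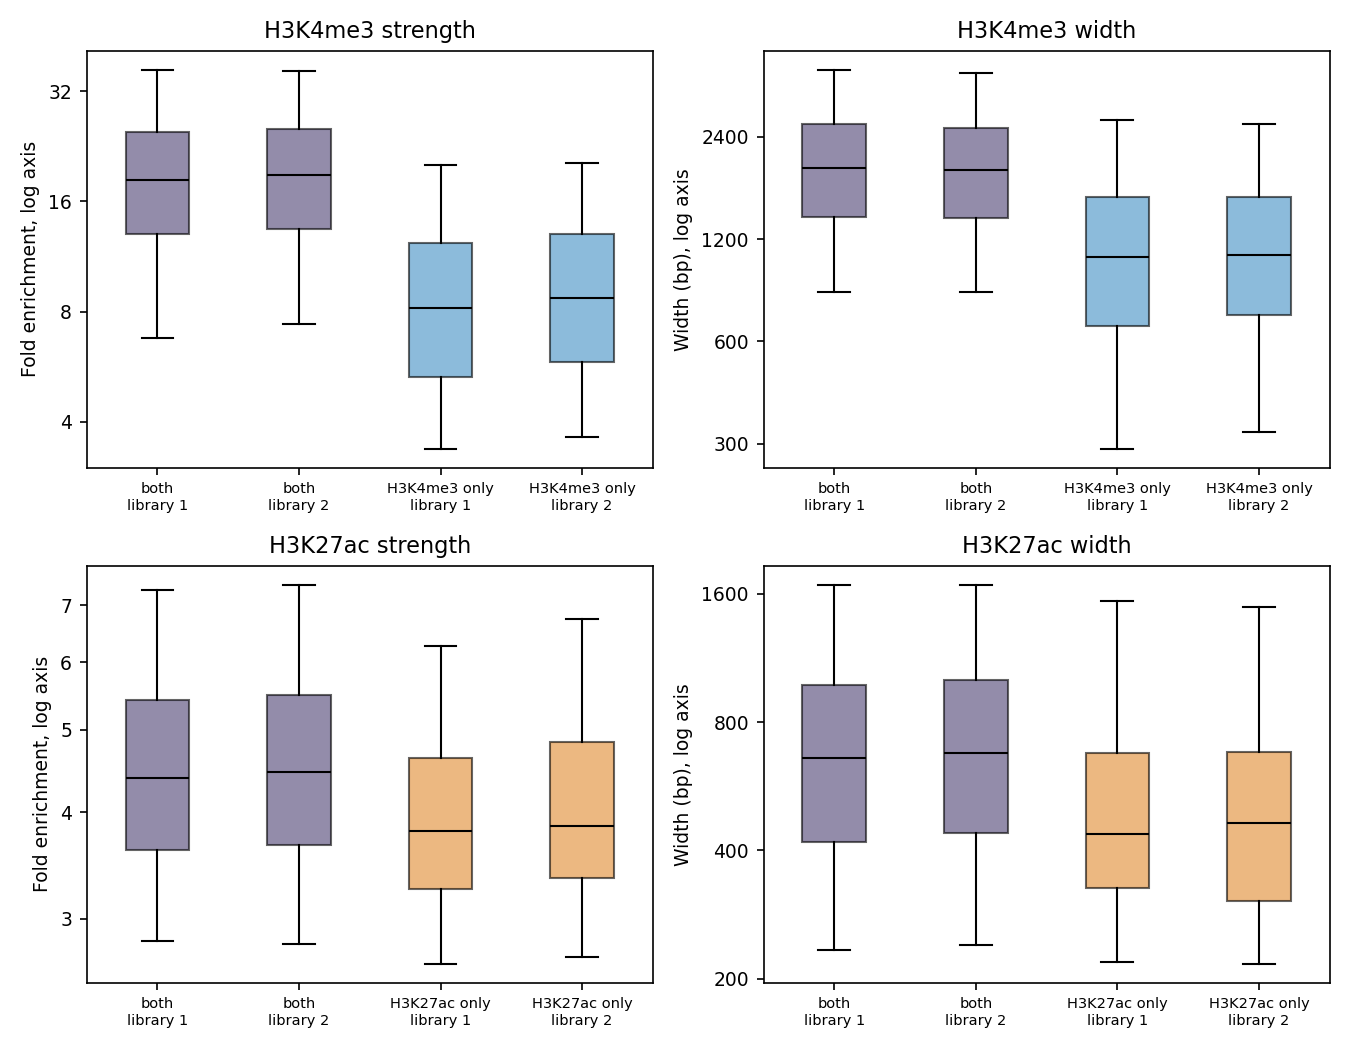
Fold enrichment (upper and lower left, log axes) and width in bp (right, log axes) of the strongest region at each gene, by group and replicate library. Lines are medians, boxes run from the 25th to the 75th percentile and whiskers from the 5th to the 95th: median H3K4me3 fold enrichment is 18.3 and 18.9 with both marks and 8.2 and 8.71 with H3K4me3 only.

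The share of H3K4me3 genes that were acetylated went up with the strength of H3K4me3. When genes were ordered by mean H3K4me3 fold enrichment into 5 bins of 2300 or 2301, H3K27ac was present at 31.0%, 63.5%, 82.4%, 93.0% and 97.9% of genes from the lowest bin to the highest. The lowest bin ended at a fold enrichment of 8.86 and the highest began at 24.4. The same genes were also ordered by the H3K4me3 value of 1 library, with H3K27ac peaks read from the library of the same replicate number. Replicate 1 then gave 38.01% in the lowest and 97.9% in the highest bin, and replicate 2 gave 40.6% and 98.1%. By width, H3K27ac was present at 19.2% of the 370 genes whose H3K4me3 region was under 500 bp (interval 15.3 to 23.6%) and at 92.8% of the 1481 whose region was over 3000 bp (91.4 to 94.1%). In the other direction there was little room for a gradient, since H3K4me3 was present at 95.7% of genes in the lowest of 5 bins of H3K27ac fold enrichment and 98.9% in the highest. Across the 8463 genes with both marks, Spearman's rho between the fold enrichments of the 2 marks was 0.36 and 0.40 in the 2 library pairs, a description over genes that share libraries and regions. For scale, rho between replicates was 0.90 for H3K4me3 fold enrichment and 0.65 for H3K27ac.

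**Figure D3:**
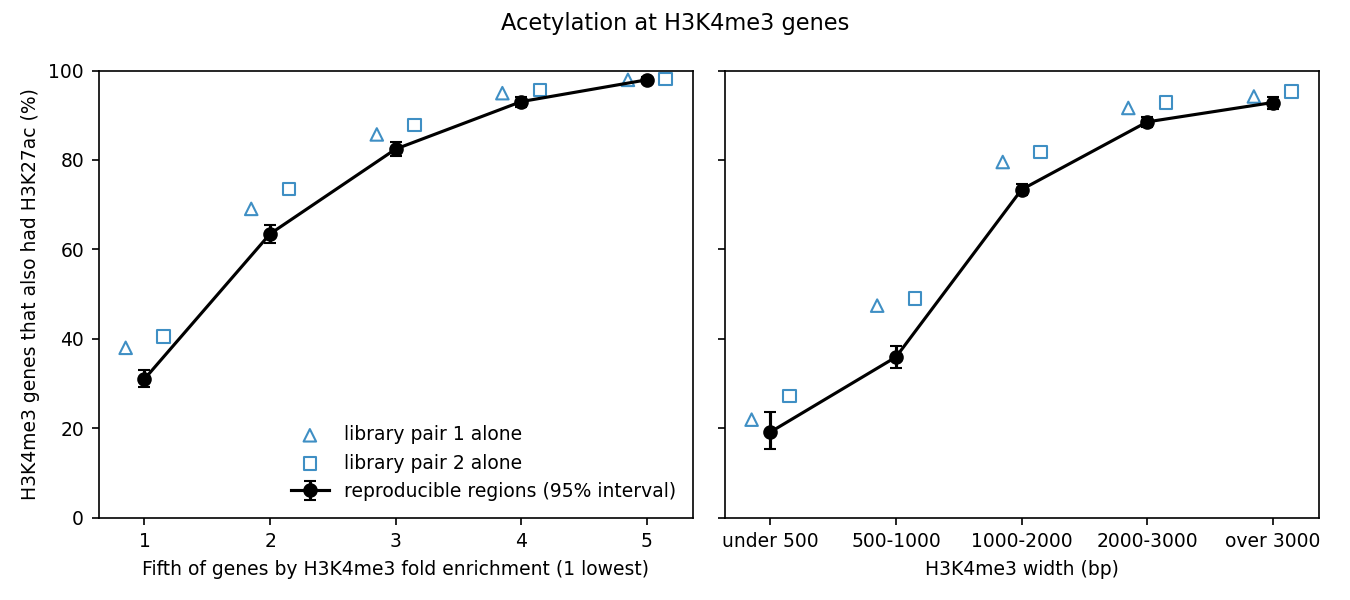
Share of H3K4me3 genes that also had H3K27ac (%), by bin of H3K4me3 fold enrichment (left, 5 bins of equal size) and by H3K4me3 width in bp (right). Filled points are reproducible regions with exact 95% intervals over genes: the share runs from 31.0% in the lowest to 97.9% in the highest bin. Open points show the same genes placed by the H3K4me3 value of 1 library, with H3K27ac peaks of the same replicate number.

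The 10 genes with the strongest pair of marks, by mean rank of both fold enrichments, were CPSF6, KMT2B, LEMD3, MMD, MOGS, NAP1L4, RNF11, TOMM5, TRRAP and WAPL, in alphabetical order. WAPL had H3K4me3 fold enrichments of 55.8 and 53.7 in the 2 libraries and H3K27ac fold enrichments of 10.6 and 11.1. KMT2B had 52.9 and 55 for H3K4me3 and 11.3 and 10.1 for H3K27ac. CPSF6, a subunit of the cleavage factor that sets the poly(A) site, had 44.4 and 47.6 for H3K4me3 and 10.9 and 10.7 for H3K27ac, and it was the only 1 of the 10 with a reproducible BRG1 region at an end. TRRAP, the scaffold of several histone acetyltransferase complexes, had 42.9 and 49 for H3K4me3 and 9.69 and 9.78 for H3K27ac. In each of these genes all 4 values lay above the 75th percentile of their group, which follows from choosing the genes by these values.

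The widest H3K4me3 regions at genes with both marks often covered ends of neighbouring genes. A region of 12498 bp covered an end of HOXC9 and 1 of 9362 bp ends of HOXB7 and HOXB8, patterning factors of the homeobox clusters. IRS1, an adaptor of the insulin receptor, shared a region of 8999 bp with its neighbour RHBDD1. CBX3, a heterochromatin protein, and HNRNPA2B1, an RNA-binding protein, shared 1 of 8296 bp, and ACTG1, gamma actin, and FSCN2 shared 1 of 8010 bp. These wide regions were of unlike strength: H3K4me3 fold enrichments were 8.34 and 15.7 at HOXC9 and 17.5 and 17.4 at HOXB7, below the medians of the group, but 24.7 and 24.6 at IRS1, 39.3 and 23.2 at CBX3 and 34.2 and 38 at ACTG1, above them.

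The strongest H3K4me3 only genes had H3K4me3 above the 75th percentile of genes with both marks (24.8 and 25.3 in the 2 libraries). The first 10 were CAMK2N1, ENOPH1, ERBB3, HNRNPDL, L3MBTL3, PELO, STIP1, TRIM17, ZNF256 and ZNF550. L3MBTL3 had H3K4me3 fold enrichments of 36.4 and 37.9 and PELO 37.1 and 35.8, with no H3K27ac peak in either library at any end. STIP1, a co-chaperone that links HSP70 and HSP90, had 35.2 and 29.7, again with no H3K27ac peak. ERBB3, a receptor of the EGF receptor family, had 31.7 and 31.5 and no H3K27ac peak. HNRNPDL and ENOPH1, which share a region, had 34.3 and 32.4 for H3K4me3, and there an H3K27ac peak of 2.65 was called in library 1 only. CAMK2N1, an inhibitor of CaM kinase II, had 32.1 and 35.7 for H3K4me3 and an H3K27ac peak of 4.48 in library 2 only. Absence of a reproducible H3K27ac region thus covered genes without any peak and genes with a peak in 1 library.

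POLR2D, which codes for a subunit of RNA polymerase II, shows a further way into the H3K4me3 only group. It had H3K4me3 fold enrichments of 23.6 and 19.1 and H3K27ac peaks of 4.52 and 3.82 within 1000 bp of an end, but the H3K27ac peaks of the 2 libraries did not overlap or touch. RPS2 and COL5A1 were of the same kind. In all, 435 and 658 of the 3038 H3K4me3 only genes had an H3K27ac peak in library 1 and library 2. The nearest reproducible H3K27ac region lay a median of 26961 bp from an end of an H3K4me3 only gene, and within 5000 bp at 18.8% of them.

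Most H3K27ac only genes had no H3K4me3 peak at their ends in either library. The first 10 by H3K27ac rank were CCDC88B, FRMD6, LOC124902361, LOC124903757, NDST1, OSCAR, S100A3, SEMA3C, SLC16A3 and VXN. OSCAR, a collagen receptor of the immunoglobulin superfamily, had H3K27ac fold enrichments of 9.71 and 8.58 and SLC16A3, the lactate exporter MCT4, 7.06 and 8.53. NDST1 had 7.5 and 7.08, S100A3 7.06 and 6.01 and SEMA3C, a secreted guidance protein, 5.93 and 6.73. No H3K4me3 peak was called at these genes in either library. An H3K4me3 peak in at least 1 of the 2 libraries was present at 21 of the 218 genes (9.63%), an H3K4me3 region inside the gene but away from its ends at 59 (27.1%), and a region within 5000 bp of an end at 69 (31.7%).

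In lists of secreted signals, H3K27ac only genes were 2 of 39 interleukins (5.13%, IL6 and IL24), 1 of 43 chemokines (2.33%, CCL2) and 0 of 21 interferons. The first 2 shares lay above the 1.1% of all genes, but they rest on 2 genes and 1 gene. Most members of these lists carried neither mark. Some members of the H3K27ac only group are given here, chosen after their values were seen. IL6, an inflammatory cytokine, had H3K27ac fold enrichments of 3.16 and 4.28, LIF, a cytokine of the same family, 4.13 and 3.55, and CSF2, the growth factor GM-CSF, 2.42 and 3.43. EDN1, the vasoconstrictor endothelin 1, had 4.48 and 4.52 and PLAU, the protease urokinase, 4.22 and 4.91. All 5 lacked an H3K4me3 peak in both libraries, and IL6, CSF2 and EDN1 also carried H3K4me1. CCL2, a chemokine that attracts monocytes, had 4.13 and 3.98 for H3K27ac and an H3K4me3 peak of 3.87 in library 1 only.

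Families that every cell needs carried both marks at most members, well above the 42.7% of all genes. Both marks were present at 43 of 46 genes for respiratory complex I, 76 of 86 for cytosolic ribosomal proteins, 61 of 77 for mitochondrial ribosomal proteins, 41 of 50 for the proteasome and 15 of 20 for glycolysis. Most of the few unmarked members had an H3K4me3 region inside the gene, away from the outer RefSeq ends: 2 of 3 unmarked cytosolic ribosomal genes, MRPL24 and MRPL44 of 3 mitochondrial ones, both unmarked complex I genes, 3 of 5 proteasome genes and both glycolytic ones (HK1 and GPI). Over all 8102 genes with neither mark, 888 had an H3K4me3 region inside. RNA polymerase subunits all carried H3K4me3, and 69.7% of them (23 of 33) were acetylated, close to the 73.6% of all genes with H3K4me3. The 10 without reproducible H3K27ac included POLR2A, the largest subunit of RNA polymerase II, with H3K4me3 of 18.8 and 19.5 and an H3K27ac peak of 2.91 in library 1 only. Each library pair alone left 6 of these 33 (18.2%) without H3K27ac.

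Histone genes were the family with the largest share of H3K4me3 without H3K27ac among those of at least 20 genes. Of 73 replication-dependent and linker histone genes, 40 (54.8%) carried H3K4me3 only, against 15.3% of all genes, 11 carried both, 1 (H4C3) H3K27ac only and 21 neither. The library pairs alone gave 39.7% and 49.3% with H3K4me3 only. The genes are packed in clusters and share marked stretches, so the 51 members with H3K4me3 rested on 33 distinct regions. The longest run of adjacent H3K4me3 only genes in the genome was 10 histone genes on chromosome 6, from H2BC6 to H1-3 (chr6:26183761-26234987). Over all 51 histone members with H3K4me3, both groups together, the median fold enrichments were 8.93 and 8.5. Of the 11 with both marks, 5 were linker histone genes: H1-10 had 27.7 and 28.8 for H3K4me3 and 4.36 and 5.68 for H3K27ac, and H1-4 11.5 and 11.7 for H3K4me3 and 3.61 and 3.77 for H3K27ac. Where histone genes are near-identical copies, the placement of reads is uncertain, and its part in these counts was not tested.

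Zinc finger genes on chromosome 19 came next among families of at least 20 genes. RNA polymerase subunits (10 of 33, 30.3%) ranked between them and zinc finger genes elsewhere. Of 250 ZNF genes on chromosome 19, where KRAB zinc finger repressors sit in arrays, 84 (33.6%) carried H3K4me3 only and 106 both, and of 267 elsewhere 75 (28.1%) carried H3K4me3 only and 139 both. Among their members with H3K4me3, 55.8% and 65.0% were acetylated, below the 73.6% of all genes. A run of 8 adjacent H3K4me3 only genes from ZNF45 to ZNF224 (chr19:43912624-44109826) belonged to this family. ZNF550 had H3K4me3 fold enrichments of 34 and 35.8 with no H3K27ac peak, and ZNF256 29.9 and 35 with an H3K27ac peak of 5.46 in library 2 only.

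Among Kruppel-like factors, regulators of differentiation and growth, 8 of 18 carried H3K4me3 only (44.4%, against 15.3% of all genes: KLF2, KLF4, KLF6, KLF8, KLF9, KLF11, KLF14 and KLF16) and 3 both. KLF10 was the strongest of the latter, with 39.7 and 45 for H3K4me3 and 4.92 and 5.9 for H3K27ac. The family's split was not stable between libraries, with H3K4me3 only at 38.9% in pair 1 and 22.2% in pair 2, the latter nearer to the share of all genes. HOX genes leaned the other way. Of 39, 21 carried both marks (53.8%, against 42.7% of all genes), 3 H3K4me3 only, 1 (HOXA2) H3K27ac only and 14 neither. Of those with H3K4me3, 87.5% were acetylated, against 73.6% of all genes with H3K4me3.

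The AP-1 list, which also holds BATF, MAF and ATF3 leucine zipper genes, was divided. Both marks were present at 6 of 15 (40%), close to the 42.7% of all genes. H3K4me3 only was found at 5 of 15 (33.3%), against 15.3% of all genes. Of the members with H3K4me3, 54.5% were acetylated, against 73.6% of all genes with H3K4me3. JUN, JUNB, JUND, FOSL1, FOSL2 and MAFK carried both marks, whereas FOS, FOSB, BATF3, MAFF and MAFG carried H3K4me3 only. FOSL2 had H3K4me3 fold enrichments of 37.4 and 45.6 and H3K27ac of 7.33 and 6.61, and FOSL1 23.1 and 28.5 for H3K4me3 and 4.74 and 4.81 for H3K27ac. FOS had 4.39 and 7.48 for H3K4me3 and FOSB 8.77 and 9.72, with no H3K27ac peak in either library. No expression data were used here, and the cause of the split was not tested.

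Among subunits of the BAF and PBAF remodelling complexes, 23 of 28 carried both marks (82.1%, against 42.7% of all genes). SMARCA4, which codes for BRG1, had H3K4me3 of 29 and 24.3 and H3K27ac of 3.27 and 2.91. Peaks at its own ends do not report an added transgene. SMARCA2, which codes for BRM, the alternative ATPase, had H3K4me3 of 15.9 and 21.4 and no H3K27ac peak in either library, as did SMARCB1, with 9.11 and 6.5, and DPF1, with 6.74 and 6.63. The neuronal subunit ACTL6B and SMARCD3 carried neither mark at their outer ends, although SMARCD3 held regions of both marks inside the gene.

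Of 25 targets of NRF2 (NFE2L2), the regulator of antioxidant genes, 16 carried both marks (64%, against 42.7% of all genes). NQO1 had H3K4me3 of 13.8 and 11.7 and H3K27ac of 3.88 and 4.08, and HMOX1 14.8 and 16.2 for H3K4me3 and 3.71 and 3.43 for H3K27ac. SLC7A11, the cystine importer, had 14.5 and 11.2 for H3K4me3 and an H3K27ac peak in library 2 only. ABCC2, an export pump for conjugates, had H3K27ac only, at 2.66 and 3.23. AKR1B10, AKR1C1, AKR1C2, AKR1C3, GPX2 and TXNRD1 carried neither at their outer ends, although TXNRD1 held regions of both marks inside the gene. NFE2L2 itself had 18.9 and 20.4 for H3K4me3 and 6.41 and 10.1 for H3K27ac and KEAP1, its inhibitor, 11.03 and 10.5 for H3K4me3 and 2.89 and 4.07 for H3K27ac.

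Against 42.7% of all genes, both marks were present at 19 of 26 genes of the TGF-beta pathway (73.1%), 11 of 17 Hippo pathway genes and targets (64.7%) and 6 of 13 genes of the EGF receptor family and its ligands (46.2%), the last close to the share of all genes. SMAD4, the shared transducer of TGF-beta and BMP signals, had H3K4me3 of 13.2 and 17.7 and H3K27ac of 3.9 and 2.69. The YAP targets CCN1 and CCN2 differed: CCN1 had 17.3 and 15.9 for H3K4me3 and 4.65 and 4.62 for H3K27ac, while CCN2 had 7.81 and 9.38 for H3K4me3 and a single H3K27ac peak in library 2. MYC, the growth regulator, had 29.5 and 29.1 for H3K4me3 and 3.94 and 4.25 for H3K27ac.

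Cell identity genes were split within each list. Of 22 epithelial genes, 7 carried both marks, 4 H3K4me3 only and 11 neither, and of 22 mesenchymal genes 7, 6 and 9. Both marks were thus present at 31.8% of each list, below the 42.7% of all genes. The keratins of simple epithelia KRT8 and KRT18, which share their regions, had H3K4me3 of 12.8 and 19.3 and H3K27ac of 3.1 and 2.78, and KRT19 22.5 and 25.4 for H3K4me3 and 6.62 and 5.45 for H3K27ac. CDH1, which codes for E-cadherin, carried neither mark, whereas CDH2, which codes for N-cadherin, had H3K4me3 of 24.5 and 26.5 without an H3K27ac peak. None of 23 cadherin genes carried both marks, against 42.7% of all genes. ZEB1, a repressor of CDH1, had H3K4me3 of 25.3 and 28.6 and H3K27ac of 2.56 and 2.37, near the weak end of H3K27ac at genes with both marks, and VIM, the mesenchymal intermediate filament, 20.004 and 21.8 for H3K4me3 and 4.33 and 3.05 for H3K27ac. Of 27 pancreatic lineage factors, PDX1, FOXA1, FOXA2 and SOX9 carried both marks (14.8%, against 42.7% of all genes). NKX6-1, MNX1, HNF4G, ONECUT1 and GATA6 carried H3K4me3 only, while 18 including PTF1A, NEUROD1 and PAX6 carried neither. PDX1 had 21.2 and 14.7 for H3K4me3 and 6.76 and 5.23 for H3K27ac, and GATA6 8.51 and 8.68 for H3K4me3 with no H3K27ac peak.

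Among families with at least 2 H3K27ac only genes, their share was highest in S100 genes (4 of 19), mucins (3 of 18), laminins (2 of 12) and keratins (3 of 55), against 1.1% of all genes. The members were S100A1, S100A2, S100A3 and S100P; MUC5B, MUC12 and MUC17; LAMB3 among the laminins; and KRT13, KRT15 and KRT86. MUC12 and MUC17 are neighbours and shared 1 region just beyond the 3′ end of MUC12, and counts this small leave wide intervals. S100A2 had H3K27ac of 7.58 and 5.46 and S100P, which is abundant in pancreatic cancer, 3.08 and 2.97. LAMB3 codes for a chain of the main laminin of epithelial basement membranes and had 3.34 and 2.92. LAMA3, which codes for another chain of it, carried H3K4me3 only, at 4.51 and 5.64. The library pairs alone gave the same 21.1% for S100 genes and 16.7% for mucins. For laminins they gave 8.33% in pair 1 and 16.7% in pair 2, and for keratins 5.45% and 7.27%, so the laminin count rested on 1 gene in pair 1.

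Families that serve other tissues carried neither mark at nearly every member, against 40.9% of all genes. Neither mark was present at 386 of 387 olfactory receptors (the exception, OR1F1, had H3K4me3 of 8.91 and 9.17) and 93 of 94 keratin-associated proteins. The same held for 30 of 30 cornified envelope proteins, 45 of 45 defensins and 21 of 21 interferons. It also held for 26 of 26 MAGEA, MAGEB and MAGEC genes, 22 of 22 PRAMEF genes and 25 of 25 USP17L genes. Several of these are tandem copies in which reads cannot be placed uniquely, and the part of read placement in their counts was not tested. The longest runs of adjacent unmarked genes were of this kind: 65 genes on chromosome 11 from OR4B1 to APLNR, 57 of them olfactory receptors, 52 on chromosome 1 from TCHHL1 to S100A7 and 48 on chromosome 17 from KRT12 to KRT36. Clustered protocadherins need care, since 29 of their 44 unmarked members span an H3K4me3 region inside the gene.

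**Figure D4:**
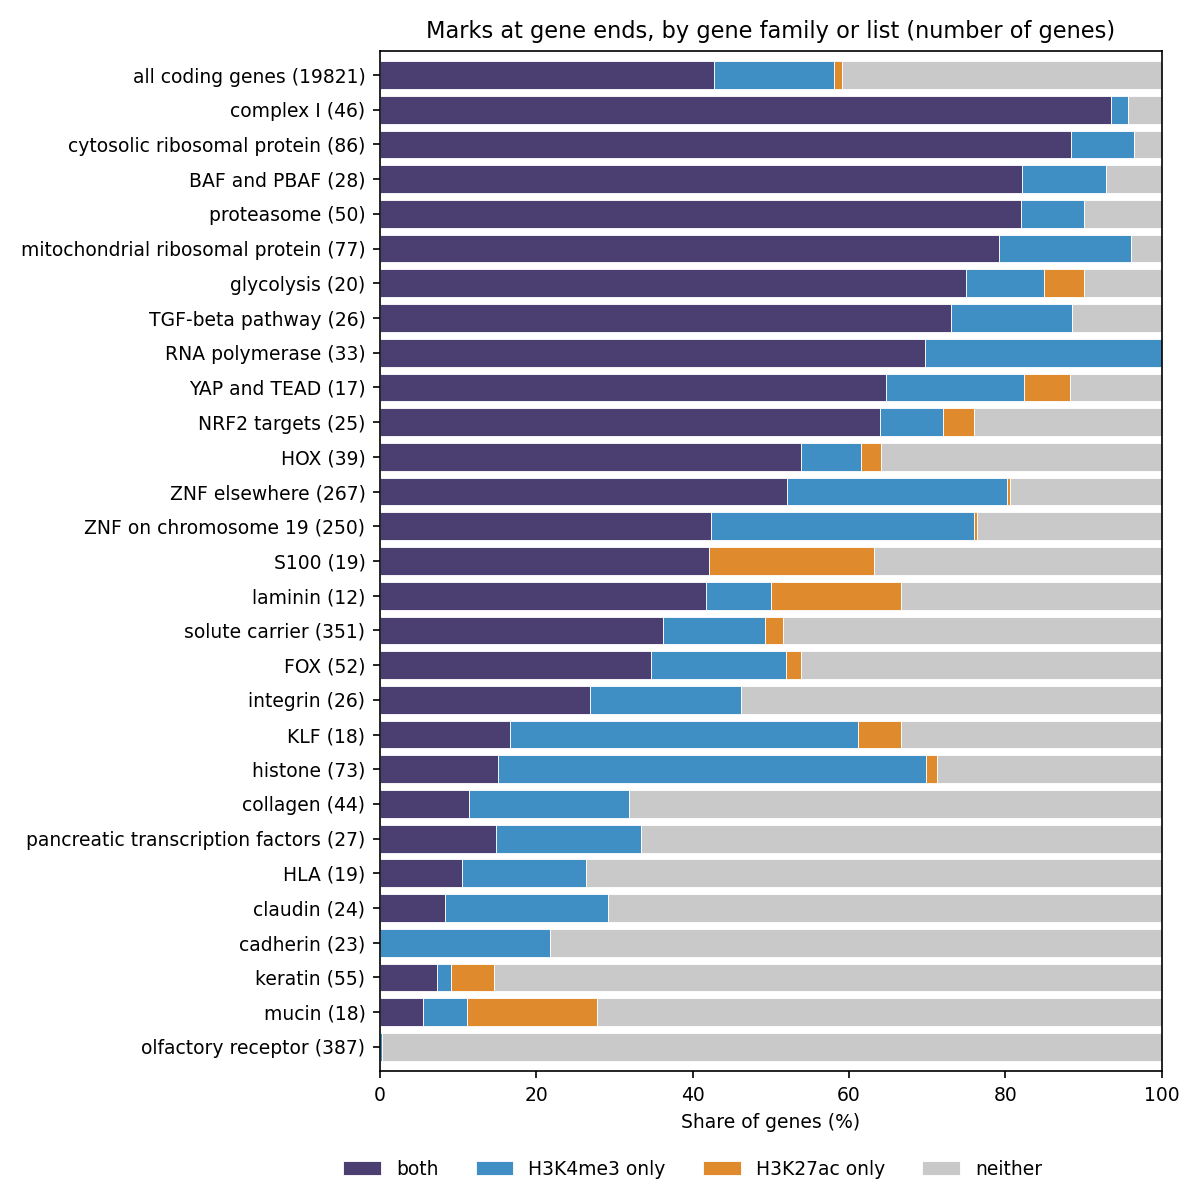
Share of genes (%) with both marks, H3K4me3 only, H3K27ac only and neither, for all 19821 coding genes and 28 families or lists, with the number of genes in brackets. Both marks reach 43 of 46 complex I genes, H3K4me3 only 40 of 73 histone genes, and neither mark 386 of 387 olfactory receptors.

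The H3K27ac only group differed from the other groups in a mark that was not used to form it. A reproducible H3K4me1 region lay within 1000 bp of an end of 113 of the 218 H3K27ac only genes (51.8%, interval 45.0 to 58.6%). The share was 4.99% at genes with both marks, 4.97% at H3K4me3 only genes and 6.12% at genes with neither. In the H3K4me1 libraries taken alone it was 61.9% and 53.7% in the H3K27ac only group and at most 9.16% in any other group, so the difference was far larger than that between libraries. With summits of the H3K4me3 and H3K27ac peaks required in the window, the share was 18.3% of 748 genes.

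BRG1 was found at few gene ends, and at a larger share of H3K27ac only genes. Reproducible BRG1 regions lay at 12 of 218 H3K27ac only genes (5.50%, interval 2.88 to 9.42%), 78 of 8463 genes with both marks (0.922%), 9 of 3038 with H3K4me3 only (0.296%) and 12 of 8102 with neither (0.148%). The 2 BRG1 libraries differed in yield, with 3213 and 6610 peaks. The order of H3K27ac only, both, H3K4me3 only and neither was nevertheless the same in each, at 7.34%, 1.93%, 0.494% and 0.235% in library 1 and 11.5%, 5.62%, 1.55% and 0.383% in library 2. The 12 H3K27ac only genes with BRG1 were TAF12, LAMB3, KLHL41, IL7R, EGFLAM, LOC128092246, ZC3H12D, AGR2, CALHM3, TNFAIP2, EVI2B and KRTAP21-3. AGR2, a disulfide isomerase of secretory epithelia, had H3K27ac of 4.52 and 5.4, TNFAIP2, a target of tumour necrosis factor, 5.62 and 6.48, and EGFLAM, a matrix protein, 6.04 and 5.75. SMARCC1, a core subunit of the same complex, lay at 48 genes with both marks and at 2, 3 and 2 genes of the H3K4me3 only, H3K27ac only (KLHL41, MUC5B and BCAR1) and neither groups (NLRP3 and OR2B11). NRF2 lay at 24, 15, 2 and 2 genes of the 4 groups in the order used at the start, the last pairs being BCAN with KLHL41 and PER1 with PLXDC1. KLHL41, a muscle gene, was the only H3K27ac only gene with all 3 factors and H3K4me1.

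**Figure D5:**
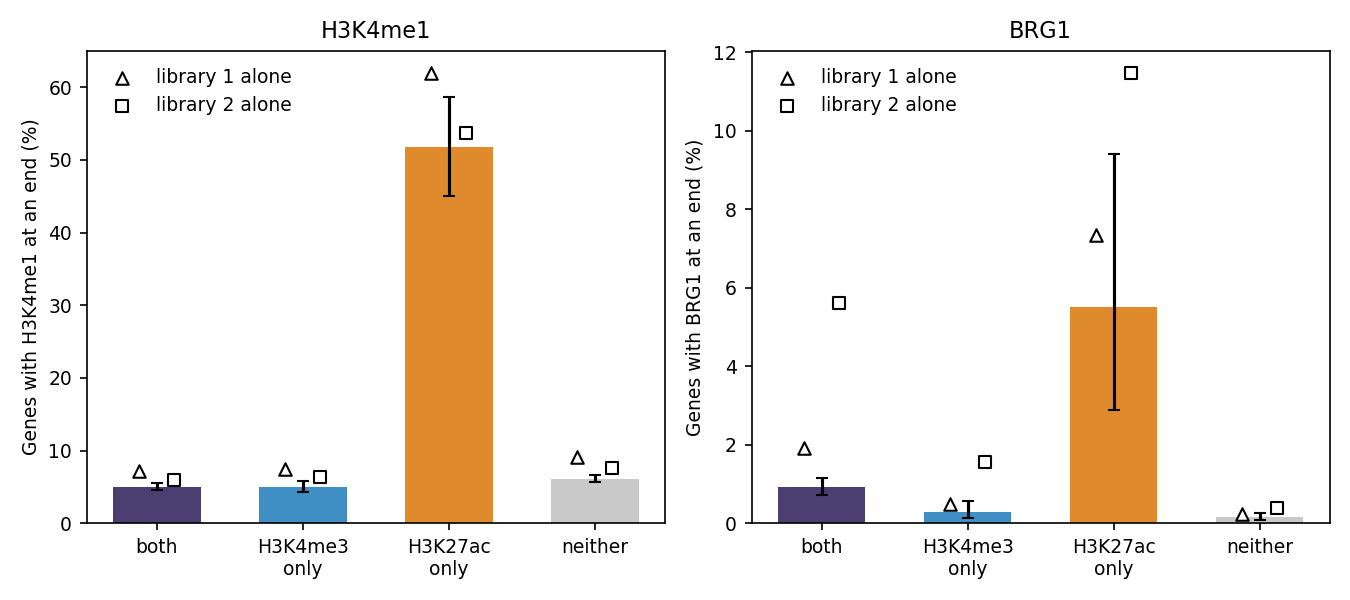
Share of genes (%) with a reproducible H3K4me1 (left) or BRG1 (right) region within 1000 bp of an end, by group. Bars carry exact 95% intervals over genes and open points show each library alone: H3K4me1 reaches 51.8% and BRG1 5.50% of H3K27ac only genes, above every other group.

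Where the strand was known, H3K4me3 lay at the 5′ end alone at 90.5% of genes with both marks and 92.3% of H3K4me3 only genes, and at the 3′ end alone at 1.47% and 2.78%. H3K27ac lay at the 3′ end alone at 34 of 132 H3K27ac only genes (25.8%), against 2.57% of 5094 genes with both marks. The library values for the former were 24.2% in each. Using only 5′ ends, 105 of 11784 genes were H3K27ac only and 4956 carried both marks. Starts of a gene on the opposite strand, pointing away within 1000 bp, were found at 17.0% of genes with both marks, 9.99% with H3K4me3 only, 0.758% with H3K27ac only (1 of 132) and 1.66% with neither, against 9.60% of all. Such pairs can share 1 region.

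Genes with marks were longer. The median span was 30103 bp with both marks, 27296 bp with H3K4me3 only, 20850.5 bp with H3K27ac only and 17163 bp with neither. The spans overlapped over nearly their whole range, and the longest genes were unmarked more often than those of middle length. Neither mark was present at 76.4% of the 1210 genes under 2 kb, 33.2% of the 4851 between 50 and 200 kb and 46.4% of the 1396 over 200 kb. RBFOX1, a neuronal splicing factor, was the longest unmarked gene at 2473620 bp, followed by CNTNAP2, PTPRD, DMD (dystrophin) and CSMD1.

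Chromosome 19 had the largest share of H3K4me3 without H3K27ac. On it, 353 of 1410 genes (25.04%) carried H3K4me3 only, and 57.2% of its genes with H3K4me3 were acetylated, the lowest share of the 23. The next lowest was 63.0% on X and the highest 83.3% on chromosome 5. At a minimum −log10 q of 5, only 59.1% of the other chromosomes had a larger acetylated share than chromosome 19. Neither mark was most common on chromosome 21 (55.5%) and X (54.6%), and H3K27ac alone was found at no gene of 268 on chromosome 18 and at 2.01% of 845 on chromosome 16. Another run of 9 adjacent H3K4me3 only genes, from NAPSA to ASPDH, also lay on chromosome 19.

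CDKN2A, the tumour suppressor locus commonly lost in pancreatic cancer, and its neighbour CDKN2B carried neither mark. They were the only coding genes wholly inside a stretch of 641661 bp on chromosome 9, from 21805048 to 22446710. No peak of any of the 12 libraries lay in this stretch, and genes that only partly reach into it were not counted. Peak lists cannot tell absent DNA from unmarked DNA, and copy number was not tested.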

How the data were processed

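CUT&RUN peak lists of 12 libraries, 2 for each of 6 targets, were used as the authors deposited them, and the IgG library was not used here. Bowtie2 2.4.1, SAMtools 1.9, Picard 2.23.9, MACS2 2.2.7.1 and GRCh38 are named in the submitters' processing notes. Each list gives a fold enrichment (a ratio of the peak over its background) and a −log10 q per peak, both written by the authors' peak caller before deposit. Peaks were listed per library. The control used in calling is not given in the sources used here. Stronger signal or a deeper library gives more and wider peaks, and an unlisted weak peak counts as absent.

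From these lists, overlapping or touching peaks of a mark were merged over replicates, and merged regions with peaks of both replicates within 1000 bp of either end of a RefSeq coding gene were assigned to it. Genes placed only on unlocalised or alternate scaffolds were left out (153; with them the set would hold 19974 genes), as were genes on Y and the mitochondrial genome. Each gene took the values of its strongest region. The steps ran in Python 3.11.15 with pandas 2.3.3 and NumPy 2.4.6, intervals came from SciPy 1.17.1 and plots from matplotlib 3.10.9. The scripts were checked on simulated data.

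All results are counts, shares with exact Clopper-Pearson intervals, and values per library. No test was run, since genes are not replicates of a condition. The gene groups, the 61 families and lists and the settings were chosen with earlier results of these data known. Genes were named by rule: the 10 strongest of each marked group, the widest, the longest unmarked, up to 4 members of each list outside its most common group, and a fixed list of pancreatic and chromatin genes. Other named genes were chosen after their values were seen. The restriction of promoter results to 15 chromosomes, the split by CG content, the motif share at own starts and the limit of 1000 bp between a printed start and the gene's end were also chosen after seeing the data. Alternatives covered peak strength, window, overlap, summits, equal region numbers, single libraries, shared ends and scaffold genes. Values of some genes are not reported here.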

Additional observations from a re-analysis of the deposited data

How the results depend on the processing

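No paired analysis was possible because the results come from no test and the compared groups are genes, not samples. The 4 groups held 8463, 3038, 218 and 8102 genes (both, H3K4me3 only, H3K27ac only, neither). A minimum −log10 q of 2 gave 4856, 6302 and 93 for the first 3, and 5 gave 1151, 9404 and 26. Only 5′ ends, which can be read at fewer genes, gave 4956, 1883, 105 and 4840. Leaving out genes that share an end gave 4277, 1809 and 134, again of fewer genes. Summits in the window gave 748 H3K27ac only genes, and equal region numbers for the marks 4637 H3K4me3 only and 145 H3K27ac only genes. Leaving out 1 library at a time gave 8469 to 9103, 2398 to 3242, 205 to 279 and 7898 to 8061.

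For the log2 ratios of medians (both over a single mark), values are given in the order H3K4me3 strength, H3K4me3 width, H3K27ac strength, H3K27ac width. The main values were 1.14, 0.85, 0.21 and 0.57. Leaving out 1 library gave 1.17 to 1.23, 0.89 to 0.92, 0.20 to 0.25 and 0.53 to 0.76. A minimum −log10 q of 2 gave 0.74, 0.53, 0.070 and 0.37, and of 5 gave 0.67, 0.39, −0.030 and 0.060. A window of 500 bp gave 1.002, 0.70 and 0.17 for the first 3, and 2000 bp gave 1.18, 0.91, 0.27 and 0.69. A peak of either replicate gave 1.34, 1.05, 0.22 and 0.69. Summits gave 1.09, 0.78, 0.019 and −0.044, and equal region numbers 0.94, 0.66, 0.15 and 0.44. Replicate 1 alone gave 1.26, 0.97, 0.25 and 0.60, and replicate 2 alone 1.29, 1.003, 0.25 and 0.74. Without shared ends H3K4me3 strength was 1.18, H3K27ac strength 0.21 and H3K27ac width 0.64. H3K27ac strength was 0.20 with a larger required overlap and 0.21 with scaffold genes, and H3K27ac width was 0.46 at 5′ ends. The cause of the 2 reversals was not tested.

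The log2 ratio of median span, both over neither, was 0.81. It was 0.83 and 0.88 at the 2 q minimums, 0.72 at 5′ ends, 0.73 with summits, 0.83 with equal region numbers, 0.83 for replicate 2, 1.19 without shared ends and 0.85 with scaffold genes, and 0.80 to 0.84 without 1 library. The H3K4me1 share of H3K27ac only genes (51.8%) was 61.5% at a minimum −log10 q of 5, 41.5% and 62% at windows of 500 and 2000 bp, 18.3% with summits and 47.3 to 52.7% without 1 library. The AP-1 motif share (18.2%) was 33.3% at a minimum of 5, 8.55% with summits and 17.9 to 18.5% without 1 library. Chromosome 19 had the lowest acetylated share except at a minimum of 5, where 59.1% of the others were higher. The gap between the highest and lowest H3K4me3 bins (66.9 points) ranged from 25.1 to 73.4. At least 41 of 61 families and lists had the same most common group under each setting. Depth is unknown, so weak H3K27ac cannot be told apart from absent H3K27ac.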
